A study of Homo sapiens with 4 samples.

Results

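The 38 genes described here repair DNA breaks, crosslinks and mismatches or signal that such damage is present. They were taken by name from the 58735 genes of the deposited count table, and all 38 were matched. They were measured by RNA sequencing in MDA-MB-231 cells, a human breast cancer line that lacks hormone receptors, transduced with a doxycycline-inducible histone H2B-eGFP reporter (TetOn-H2BeGFP). All 4 groups received doxycycline at 5 μg/ml for 3 days and the dyes Claret and Violet, followed by a chase of 12 days in which label is diluted at each division. The Claret, eGFP and Violet groups are the 1% of cells that kept most of the named label, sorted as slow-cycling cells, and the Bulk group was sorted with no gate on fluorescence, so that it may include label-retaining cells. Each group is 1 library, and no difference given here has a replicate check. Groups follow the sample titles, which match the column names of the tables. The treatment field of every sample names another sort than its title, and by that field the library titled Violet would be the un-gated one.

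Homologous recombination repairs breaks that pass through both DNA strands by copying the sister chromatid, and so it works mainly in S and G2 phases. The ends are resected, BRCA1 and its partners bring BRCA2 to the single-stranded DNA, and a protein filament formed there searches for the matching sequence. The Fanconi anaemia pathway removes crosslinks met by replication forks, and non-homologous end joining ligates broken ends at any point of the cell cycle. Many genes of the first 2 pathways are transcribed with the cell cycle under E2F factors and the DREAM repressor complex, whereas others are transcribed in resting and dividing cells alike. On that textbook basis 17 members were listed as cell-cycle-bound and the other 21 as constitutive.

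Summed reads ranged from 15508179 to 16976909 per library, and all 38 members passed the filter of a mean of 1 CPM (reads scaled to the library's total), as did 14585 genes in all. The mitochondrial share was 4.18% in Bulk and 5.06% to 5.48% in the slow-cycling libraries. The 8 genes fixed as typical of this line (such as VIM, CD44 and AXL) summed to 4255 to 4640 scaled CPM in every library. Within that sum single genes moved in both directions. VIM was at 794 scaled CPM in Bulk and at 1089, 1074 and 1010 in Claret, eGFP and Violet. CAV1 was at 456 in Bulk and at 253, 235 and 268. The 7 genes fixed as low in this line summed to 22.5 to 25.3 scaled CPM. Of these the oestrogen and progesterone receptor genes ESR1 and PGR and the cadherin gene CDH1 had between 0 and 7 reads, whereas FOXA1 had 235 to 271, GATA3 74 to 95 and EPCAM 28 to 61. Of the 9 markers of other cell types, CD3E was at 0 in every library, and the list summed to 23.9 scaled CPM in Bulk and 31.3 to 33.2 in the others, most of it COL1A1. The part of this small difference in the results was not tested.

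Promoters of the members were searched for E2F-like sites because many of the members moved together. Windows from 250 bases before to 50 bases after the transcription start were taken from RefSeq (GRCh38.p14) and matched 34 of the 38 members. The letters searched were TTCCCGC and TTGGCGC on either strand. They occurred in 10 of 15 cell-cycle-bound members with a window, 6 of 19 constitutive members and 9.23% of all 35116 promoters of the table. Those promoters were not limited to genes that passed the filter, as all members did. Of the genes tested outside the 38 that had a window, 1523 had these letters and 8795 had none. When only the 250 bases before the start were searched, the counts were 4 of 15, 3 of 19 and 7.81%, since many matches lay just after the start. The cell-cycle-bound list was itself drawn up from textbook E2F and DREAM targets, so its share with these letters is no independent check of that list. The lines below give 1 match for each of the 10 cell-cycle-bound members, 5′ to 3′ on the gene's strand. Each has 10 bases on either side of the matching letters, which are in capitals and alike because the search fixed them. GCGGGAA and GCGCCAA are the reverse complements of the letters searched.
BLM (chr15:90717339-90717365, plus strand): caagcttccgGCGGGAAgtgagccagg
BARD1 (chr2:214809663-214809689, minus strand): cgtcccagacGCGGGAAgagcttggcc
BRIP1 (chr17:61863510-61863536, minus strand): ggggcgggagGCGGGAAttcgtctcgg
XRCC2 (chr7:152676104-152676130, minus strand): ggcgttggtgGCGGGAAagttgagtct
RAD51AP1 (chr12:4538859-4538885, plus strand): ctggttttggGCGGGAAttgaaaccgc
RAD54L (chr1:46247629-46247655, plus strand): cgcagcactaTTCCCGCctcttccttg
FANCA (chr16:89816610-89816636, minus strand): ggggctgtagGCGCCAAggccatgtcc
FANCG (chr9:35080010-35080036, minus strand): ctcggtggaaGCGGGAAcccaggagga
FANCD2 (chr3:10026425-10026451, plus strand): gtcgggcctgGCGGGAAagtcgaaaac
MSH6 (chr2:47783139-47783165, plus strand): ccccccagatTTCCCGCcagcaggagc

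The same letters also occurred in the constitutive members XRCC3, RAD51D (called lower in eGFP) and XRCC6 (called lower in Violet). The other constitutive members with a match are the 3 below, all Fanconi core genes. Their log2 ratios to Bulk lay within 0.5, except FANCC in eGFP at -0.51.
FANCE (chr6:35452346-35452372, plus strand): ttccgacagcGCGGGAAcggctgcggc
FANCC (chr9:95317738-95317764, minus strand): cgtcggaattTTCCCGCgacgccgcgg
FANCL (chr2:58241408-58241434, minus strand): ctccaggatcTTCCCGCcaaggctggg

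A match in these letters is a description of the window, and EXO1, BRCA1, BRCA2, FANCB and CHEK1 had no match in theirs. For each member only the first listed window was searched, so other transcription starts were not covered. The BRCA1 window (chr17:43170278-43170577, minus strand) lies outside the span of the gene given below, 43044295 to 43170245. Other letters were searched in the same windows. CCAAT, the letters bound by NF-Y, occurred on either strand in 7 of 15 cell-cycle-bound members, 9 of 19 constitutive members and 34.6% of all promoters. TTTGAA or TTCGAA, the letters of the cell cycle genes homology region (CHR), occurred in 1 of 15, in 2 of 19 and in 16.4%. Of the genes tested outside the members that had a window, 1123 had CHR letters and 9195 had none. For CCAAT these counts were 3753 and 6565. These genes passed the filter and had 1 window searched each, as the members did, whereas the 34.6% and 16.4% are over all promoters of the table. For a longer view, the 120 bases before the start are given for RAD54L (chr1:46247568-46247687, plus strand) and RAD51AP1 (chr12:4538770-4538889, plus strand), which were among the members lowest relative to Bulk, and for ATM (chr11:108222947-108223066, plus strand) and CHEK2 (chr22:28741821-28741940, minus strand), which held their level. Capitals mark E2F, CCAAT or CHR letters.
RAD54L: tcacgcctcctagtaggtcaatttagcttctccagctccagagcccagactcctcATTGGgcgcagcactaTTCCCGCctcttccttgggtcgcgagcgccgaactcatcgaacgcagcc
RAD51AP1: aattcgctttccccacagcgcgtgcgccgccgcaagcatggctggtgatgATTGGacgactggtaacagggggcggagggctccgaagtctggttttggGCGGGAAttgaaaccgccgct
ATM: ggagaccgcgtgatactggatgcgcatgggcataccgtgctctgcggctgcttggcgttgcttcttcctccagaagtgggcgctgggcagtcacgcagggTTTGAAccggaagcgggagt
CHEK2: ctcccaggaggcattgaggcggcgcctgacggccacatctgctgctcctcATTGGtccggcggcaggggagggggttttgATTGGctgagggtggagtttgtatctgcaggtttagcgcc

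In these lines RAD54L and RAD51AP1 hold 1 E2F match and 1 CCAAT match each, ATM holds 1 CHR match, and CHEK2 holds 2 CCAAT matches. Over the genes tested outside the 38 that had a window, 12.1% of the 1523 with an E2F match and 5.71% of the 8795 without were called lower in Claret. The shares were 13.3% and 6.57% in eGFP, and 12.9% and 6.08% in Violet. The other letters separated these genes too. With and without CHR letters the shares called lower were 15.1% and 5.62% in Claret, 16.6% and 6.47% in eGFP, and 14.6% and 6.17% in Violet. With and without CCAAT they were 9.01% and 5.30%, 10.2% and 6.08%, and 9.30% and 5.82%.

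The members as a group were lower in the slow-cycling libraries. By an exact binomial test on the reads of a pair of libraries, with an adjusted p under 0.05 and a log2 ratio of at least 1 in size, 19 of 38 members were called lower than Bulk in Claret, against 6.72% of all genes tested. In eGFP 22 were called lower, against 7.64%, and in Violet 20, against 6.91%. None was called higher, where 11.2%, 11.9% and 11.6% of all genes were. This test compares libraries, not conditions, and the 3 comparisons share the Bulk library. The median log2 ratios of the members were -1.01, -1.17 and -1.11 in the same order, beside -0.01, -0.01 and 0.01 over all genes tested. At an unadjusted p under 0.05, of any size and in either direction, the exact binomial test gave 31, 32 and 32 members, beside 10300, 10459 and 10435 of the 14585 genes tested. If the groups were taken from the treatment field instead, 0 members would be called lower and 20 higher in Claret, and 0 would be called lower in eGFP and Violet. In RNA from many cells, fewer cells that express a gene and less RNA per cell cannot be told apart.

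Of the 17 cell-cycle-bound genes 16 were called lower in each library, and their median log2 ratio was -1.91, -2.09 and -1.90 in Claret, eGFP and Violet. Of the 21 constitutive genes 3, 6 and 4 were called lower, with medians of -0.38, -0.35 and -0.36. That is 14.3%, 28.6% and 19.0% of them, beside 6.72%, 7.64% and 6.91% of all genes tested. A level within 0.5 of Bulk on the log2 scale was held by 12 of the 38 members in each library, all of them constitutive. These are 57.1% of the constitutive members, near the 54.9%, 53.2% and 53.9% of all genes tested. No cell-cycle-bound member lay in that range. The lists were drawn up with earlier results of these data known, so their contrast is a description. For comparison, 26 of 27 replication genes (96.3%, beside the same shares of all genes) were called lower in each library, with medians of -2.07, -2.37 and -2.18. The exception, named after its values were seen, was POLA2.

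**Figure D1:**
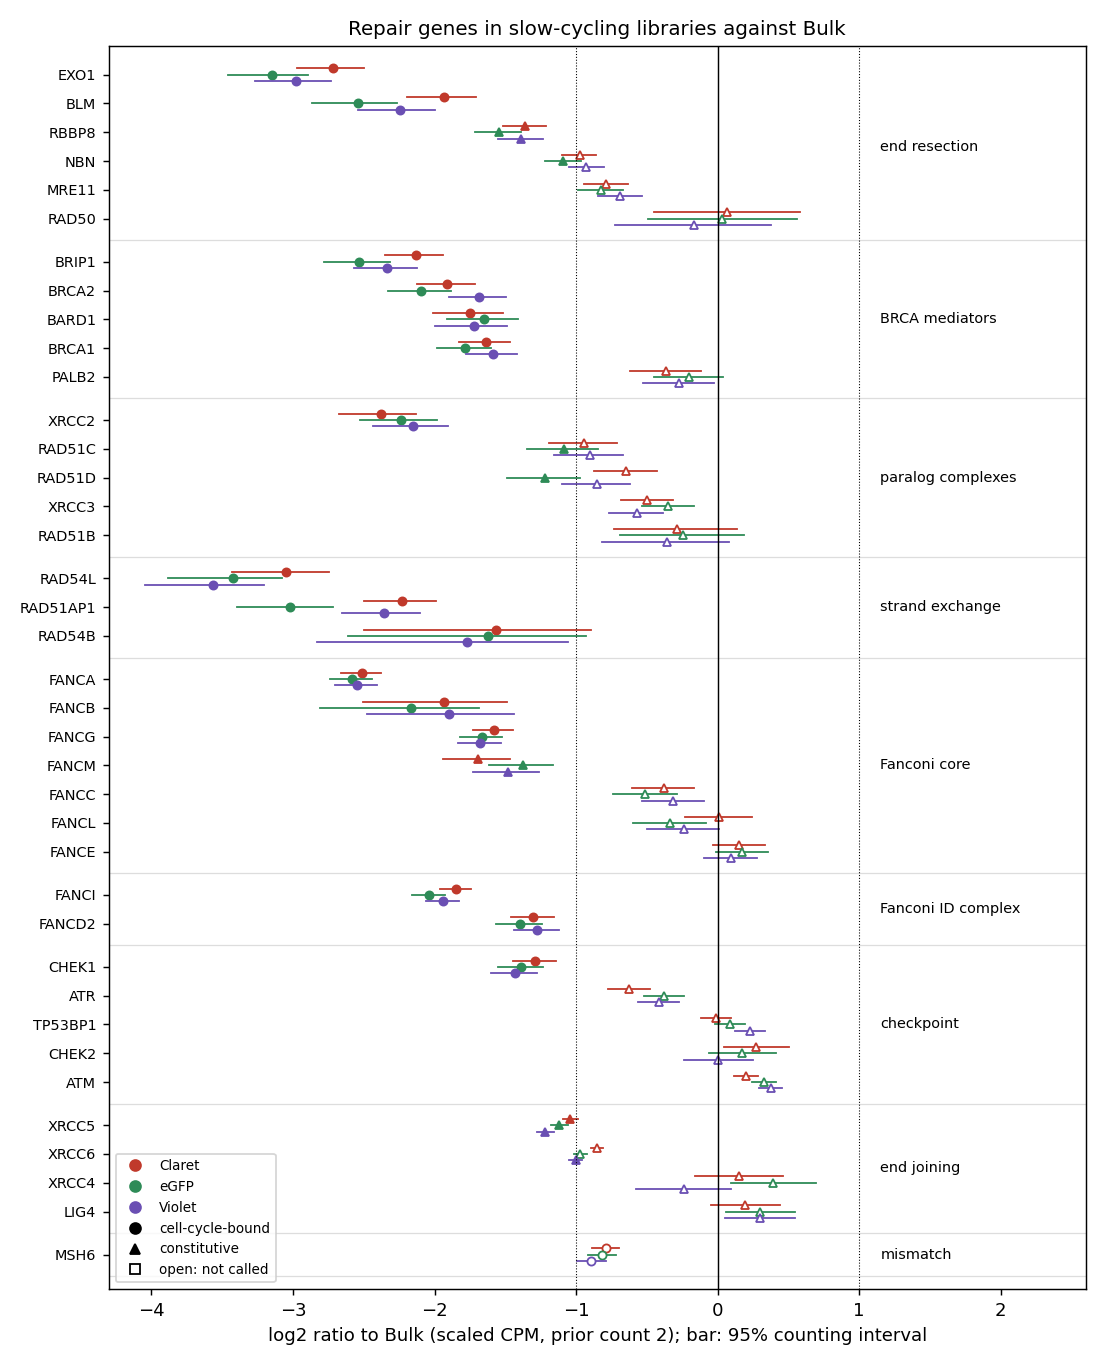
Each point is the log2 ratio of a member's scaled CPM to Bulk in Claret (red), eGFP (green) or Violet (purple), with its 95% counting interval as a bar, and genes are grouped by role. Circles are the 17 cell-cycle-bound members and triangles the 21 constitutive ones. Filled symbols were called, and dotted lines mark log2 ratios of -1 and 1. RAD54L and EXO1 lie farthest to the left, whereas ATM, CHEK2, FANCE and LIG4 lie at or to the right of 0.

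Gene coordinates below are those of GENCODE 29 (GRCh38), and log2 ratios to Bulk are given in the order Claret, eGFP and Violet. End resection starts recombination. The MRE11, RAD50 and NBN proteins form the complex that binds broken ends, RBBP8 (CtIP) stimulates its nuclease, and EXO1 and BLM, a nuclease and a helicase, extend the cut. EXO1 (ENSG00000174371, chromosome 1, 241847967 to 241895148) had 1054 reads in Bulk against 171 (Claret), 118 (eGFP) and 132 (Violet). Every slow-cycling library was far below Bulk, at 15.2%, 11.3% and 12.7% of its scaled level, and the log2 ratios were -2.72, -3.15 and -2.98. BLM (ENSG00000197299, chromosome 15, 90717327 to 90816165) had 644 reads in Bulk against 180 (Claret), 110 (eGFP) and 134 (Violet). Its log2 ratios were -1.93, -2.54 and -2.25, and Claret held the highest of the 3 slow-cycling levels. RBBP8 (chromosome 18, 22798261 to 23026488), which has no place in the cell-cycle-bound list, was also called lower in each library, from 1190 reads to 498, 410 and 454 and at log2 ratios of -1.36, -1.55 and -1.39.

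The break-binding complex lay closer to Bulk. NBN (ENSG00000104320, chromosome 8, 89933336 to 90003228) had 1563 reads in Bulk against 856 (Claret), 739 (eGFP) and 821 (Violet), and its log2 ratios of -0.97, -1.09 and -0.93 passed the fold threshold in eGFP alone. The 95% intervals of NBN, -1.10 to -0.86 in Claret, -1.22 to -0.97 in eGFP and -1.05 to -0.80 in Violet, overlapped. MRE11 (chromosome 11, 94415578 to 94493908) went from 897 reads to 560, 511 and 555, with log2 ratios of -0.79, -0.82 and -0.69, and was not called. RAD50 (chromosome 5, 132556019 to 132646344) had only 62 reads in Bulk against 70 (Claret), 64 (eGFP) and 55 (Violet), and its log2 ratios of 0.07, 0.03 and -0.17 had intervals as wide as -0.45 to 0.58 in Claret. In GENCODE 29, 79.7% of the exon bases of RAD50 are also exon bases of AC116366.3, a gene on the same strand that was listed with 0 or 1 read per library. The RAD50 count is uncertain, the part of this overlap was not tested, and a difference was not detectable at this depth.

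Of the BRCA mediators 4 of 5 were called lower in each library, beside 6.72%, 7.64% and 6.91% of all genes tested in Claret, eGFP and Violet. BRCA1 and BARD1 form a ubiquitin ligase, BRIP1 is a helicase bound to BRCA1, and PALB2 links BRCA1 to BRCA2, which starts the filament on resected DNA. BRCA1 (ENSG00000012048, chromosome 17, 43044295 to 43170245) had 1007 reads in Bulk against 347 (Claret), 294 (eGFP) and 333 (Violet). BARD1 (ENSG00000138376, chromosome 2, 214725646 to 214809711) had 560 reads in Bulk against 178 (Claret), 179 (eGFP) and 168 (Violet). The slow-cycling libraries were close together for both genes and below Bulk, with log2 ratios of -1.64, -1.78 and -1.59 for BRCA1 and -1.75, -1.65 and -1.72 for BARD1. BRCA2 (ENSG00000139618, chromosome 13, 32315474 to 32400266) had 894 reads in Bulk against 255 (Claret), 210 (eGFP) and 276 (Violet), with log2 ratios of -1.91, -2.09 and -1.69. BRIP1 (ENSG00000136492, chromosome 17, 61681266 to 61863521) was the lowest of the 5 relative to Bulk, with 1012 reads in Bulk against 247 (Claret), 175 (eGFP) and 199 (Violet) and log2 ratios of -2.13, -2.53 and -2.33. PALB2 (ENSG00000083093, chromosome 16, 23603160 to 23641310) was the exception. It had 298 reads in Bulk against 249 (Claret), 261 (eGFP) and 246 (Violet), and its log2 ratios of -0.36, -0.20 and -0.27 stayed within 0.5 of Bulk.

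Ratios between partners within a library do not depend on how libraries are scaled. Per kilobase of gene length, BRCA1 stood at 1.19 times BARD1 in Bulk (95% counting interval 1.07 to 1.32). The ratio was 1.29 in the Claret library (1.07 to 1.55), 1.08 in eGFP (0.898 to 1.31) and 1.31 in Violet (1.08 to 1.59), so that all 4 intervals overlapped. BRCA2 stood at 1.16 times PALB2 in Bulk (1.02 to 1.33), but at 0.396 in Claret (0.331 to 0.474), 0.311 in eGFP (0.258 to 0.375) and 0.434 in Violet (0.364 to 0.517). The Bulk interval of BRCA2 over PALB2 lay clear of the other 3.

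**Figure D2:**
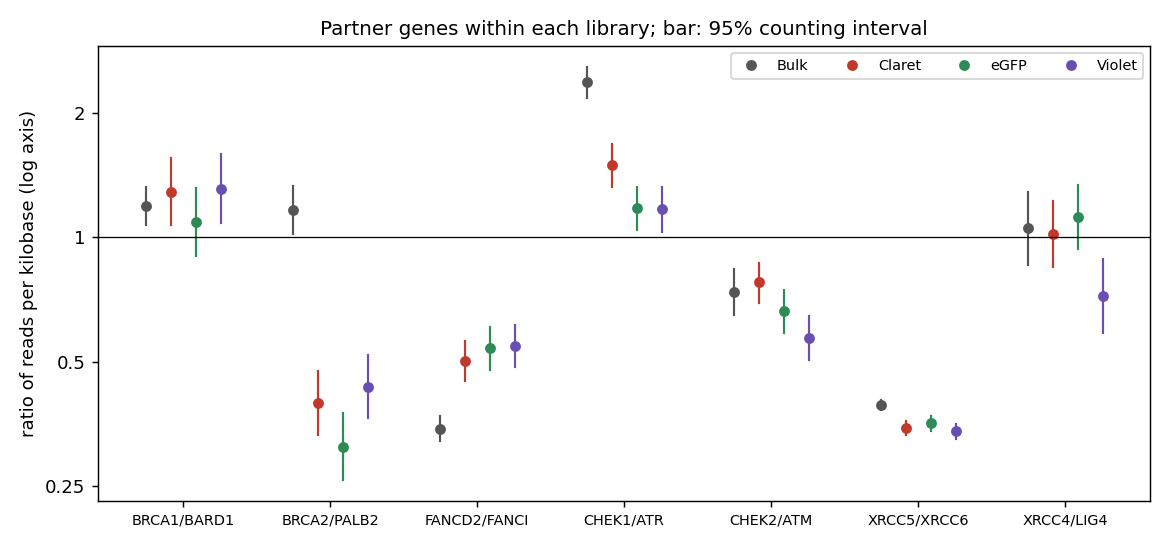
Each point is the ratio of reads per kilobase of 2 partner genes within 1 library (log axis), with its 95% counting interval, for Bulk (grey), Claret (red), eGFP (green) and Violet (purple). BRCA1 over BARD1 overlaps across the 4 libraries, whereas BRCA2 over PALB2 and CHEK1 over ATR are highest in Bulk and FANCD2 over FANCI is lowest there.

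RAD51B, RAD51C, RAD51D, XRCC2 and XRCC3 are paralogs that assemble into small complexes and assist strand exchange, and only XRCC2 of the 5 was called lower in every library. XRCC2 (ENSG00000196584, chromosome 7, 152644779 to 152676165) had 660 reads in Bulk against 135 (Claret), 140 (eGFP) and 147 (Violet). Its 3 slow-cycling values were far below Bulk, at log2 ratios of -2.38, -2.23 and -2.15. RAD51C (ENSG00000108384, chromosome 17, 58692573 to 58735611), which takes part in both paralog complexes, had 408 reads in Bulk against 228 (Claret), 193 (eGFP) and 217 (Violet) and log2 ratios of -0.94, -1.08 and -0.90, past the threshold in eGFP only. RAD51D (ENSG00000185379, chromosome 17, 35092208 to 35121522), the direct partner of XRCC2, had 415 reads in Bulk against 285 (Claret), 179 (eGFP) and 229 (Violet). Its log2 ratios were -0.65, -1.22 and -0.85, called in eGFP, where the level was the lowest. On the scale log2(FPKM + 1) the eGFP ratios of RAD51D and RAD51C were -0.76 and -0.83, no longer past the threshold. RAD51B (chromosome 14, 67819779 to 68730218) had 98 reads in Bulk against 86 (Claret), 83 (eGFP) and 76 (Violet), with log2 ratios of -0.29, -0.25 and -0.36 whose intervals all include 0. XRCC3 (chromosome 14, 103697609 to 103715504) had 560 reads in Bulk against 427 (Claret), 443 (eGFP) and 376 (Violet), with log2 ratios of -0.50, -0.35 and -0.57. Of its exon bases 76.7% overlap those of KLC1 on the opposite strand, and as the use of strand in counting is not given in the sources used here, the XRCC3 count is uncertain.

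The strand exchange factors RAD54L, RAD51AP1 and RAD54B held the lowest ratio of the whole list. RAD54L (ENSG00000085999, chromosome 1, 46247688 to 46278473), a motor protein that moves along DNA during strand exchange, had 636 reads in Bulk against 81 (Claret), 58 (eGFP) and 52 (Violet). It was left at 12.1%, 9.32% and 8.46% of Bulk, with log2 ratios of -3.05, -3.42 and -3.56. The 95% interval in Violet ran from -4.05 to -3.20. Of the exon bases of RAD54L 25.1% overlap LRRC41 on the opposite strand, whose own reads numbered 850 in Bulk against 1287 (Claret), 1271 (eGFP) and 1131 (Violet). RAD51AP1 (ENSG00000111247, chromosome 12, 4538798 to 4560048), which stimulates strand pairing, had 689 reads in Bulk against 157 (Claret), 84 (eGFP) and 133 (Violet). Its log2 ratios were -2.23, -3.02 and -2.36, and eGFP was below both dye-sorted libraries. RAD54B (chromosome 8, 94371960 to 94475109) had 56 reads in Bulk against 19 (Claret), 17 (eGFP) and 15 (Violet), with log2 ratios of -1.57, -1.62 and -1.77 that were called in each library. It shares 59.1% of its exon bases with FSBP on the same strand, which was listed with 0 to 3 reads, and its count is uncertain. On the scale log2(FPKM + 1) the ratios of RAD54B were -0.47, -0.48 and -0.51, no longer past the threshold.

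The Fanconi core complex is a ubiquitin ligase of several subunits, and its genes divided into lower and level ones. FANCA (ENSG00000187741, chromosome 16, 89737549 to 89816657), a scaffold subunit, had 2593 reads in Bulk against 488 (Claret), 434 (eGFP) and 442 (Violet). Its log2 ratios were -2.51, -2.59 and -2.55, with intervals that overlapped. FANCG (ENSG00000221829, chromosome 9, 35073835 to 35080016), which binds FANCA, had 1505 reads in Bulk against 540 (Claret), 477 (eGFP) and 469 (Violet), with log2 ratios of -1.58, -1.67 and -1.68. FANCB (chromosome X, 14835961 to 14873069), a subunit of the catalytic module, fell in the same direction from 158 reads to 43, 34 and 41, at log2 ratios of -1.93, -2.17 and -1.90. FANCM (ENSG00000187790, chromosome 14, 45135940 to 45200890), the DNA translocase that anchors the complex, was in the constitutive list but had 588 reads in Bulk against 195 (Claret), 227 (eGFP) and 209 (Violet). Its log2 ratios of -1.69, -1.38 and -1.48 were called in each library.

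The remaining core genes kept near Bulk. FANCL (ENSG00000115392, chromosome 2, 58159243 to 58241372), the ligase subunit itself, had 284 reads in Bulk against 308 (Claret), 227 (eGFP) and 240 (Violet) and log2 ratios of 0.01, -0.33 and -0.24. FANCE (ENSG00000112039, chromosome 6, 35452356 to 35467103), which connects the core to FANCD2, had 453 reads in Bulk against 542 (Claret), 515 (eGFP) and 483 (Violet). Its log2 ratios were 0.15, 0.17 and 0.09, and every interval included 0. FANCC (chromosome 9, 95099054 to 95426796), which pairs with FANCE, had 386 reads in Bulk against 319 (Claret), 273 (eGFP) and 310 (Violet) and log2 ratios of -0.38, -0.51 and -0.31. Of the 7 core genes 4 were called lower in each library and none was called higher. Of all genes tested 6.72%, 7.64% and 6.91% were called lower and 11.2%, 11.9% and 11.6% higher in Claret, eGFP and Violet. Whether so few genes differ from the shares called higher was not tested. FANCA shares 23.6% of its exon bases with ZNF276 and FANCL 18.7% with VRK2, both on the opposite strand.

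The substrates of that ligase, FANCD2 and FANCI, clamp DNA as a pair once modified. FANCI (ENSG00000140525, chromosome 15, 89243949 to 89317261) had 3047 reads in Bulk against 910 (Claret), 745 (eGFP) and 792 (Violet). FANCD2 (ENSG00000144554, chromosome 3, 10026414 to 10101930) had 1132 reads in Bulk against 493 (Claret), 433 (eGFP) and 466 (Violet). Both were called lower in each library, at log2 ratios of -1.85, -2.04 and -1.94 for FANCI and -1.30, -1.40 and -1.28 for FANCD2. Per kilobase, FANCD2 stood at 0.344 times FANCI in Bulk (0.321 to 0.369), 0.502 in Claret (0.449 to 0.561), 0.539 in eGFP (0.477 to 0.607) and 0.545 in Violet (0.485 to 0.612). The ratio of the pair was thus higher in each slow-cycling library than in Bulk, beyond the counting intervals.

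Of the checkpoint kinases, the effector CHEK1 was called lower and the other checkpoint members were not. ATM and ATR sense breaks and single-stranded DNA and activate CHEK2 and CHEK1, and TP53BP1 shields ends from resection. CHEK1 (ENSG00000149554, chromosome 11, 125625136 to 125676255) had 1145 reads in Bulk against 504 (Claret), 440 (eGFP) and 423 (Violet), called lower in each library at log2 ratios of -1.29, -1.39 and -1.43. ATR (ENSG00000175054, chromosome 3, 142449235 to 142578826) had 922 reads in Bulk against 644 (Claret), 715 (eGFP) and 691 (Violet). Its log2 ratios of -0.62, -0.38 and -0.41 were not called. Per kilobase, CHEK1 stood at 2.37 times ATR in Bulk (2.17 to 2.58), 1.49 in Claret (1.32 to 1.68), 1.17 in eGFP (1.04 to 1.32) and 1.17 in Violet (1.03 to 1.32). Bulk was clear of the other libraries in this ratio.

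ATM was the member with the highest mean log2 ratio. ATM (ENSG00000149311, chromosome 11, 108222484 to 108369102) had 2033 reads in Bulk against 2514 (Claret), 2580 (eGFP) and 2634 (Violet). Bulk held the fewest reads, but the log2 ratios of 0.20, 0.33 and 0.37 were far from the threshold. CHEK2 (ENSG00000183765, chromosome 22, 28687743 to 28742422) had 281 reads in Bulk against 366 (Claret), 320 (eGFP) and 282 (Violet), with log2 ratios of 0.27, 0.17 and 0.01. TP53BP1 (ENSG00000067369, chromosome 15, 43403061 to 43510728) had 1372 reads in Bulk against 1467 (Claret), 1471 (eGFP) and 1605 (Violet), with log2 ratios of -0.01, 0.09 and 0.23. Neither was called in any library. CHEK2 stood per kilobase at 0.737 times ATM in Bulk (0.649 to 0.836) and at 0.777 (0.694 to 0.867), 0.662 (0.587 to 0.744) and 0.571 (0.503 to 0.646) in Claret, eGFP and Violet, and the Violet interval lay below that of Bulk. TP53BP1 shares 28.7% of its exon bases with TUBGCP4 on the opposite strand.

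End joining presented 2 patterns. The Ku proteins XRCC6 (Ku70) and XRCC5 (Ku80) form the ring that binds ends, and XRCC4 and LIG4 seal them. XRCC6 (ENSG00000196419, chromosome 22, 41621119 to 41664048) was the most highly expressed member, with 228 FPKM in Bulk and 125, 114 and 110 in the slow-cycling libraries by the authors' values, and it had 11656 reads in Bulk against 6969 (Claret), 6008 (eGFP) and 5813 (Violet). XRCC5 (ENSG00000079246, chromosome 2, 216107464 to 216206303) came next, with 89.7 FPKM in Bulk and 43, 40.5 and 37.3 in the slow-cycling libraries, and had 7612 reads in Bulk against 3990 (Claret), 3539 (eGFP) and 3273 (Violet). The log2 ratios were -0.85, -0.97 and -1.002 for XRCC6 and -1.04, -1.12 and -1.22 for XRCC5, so that these constitutive genes stood near the threshold, XRCC5 called in each library and XRCC6 in Violet. With genes of at least 10 CPM only, the Claret value of XRCC5 was -0.97 and the Violet value of XRCC6 -0.92, neither called. With libraries scaled by their summed reads, XRCC6 in Violet was at -0.96 and not called.

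The ligase pair stayed within 0.5 of Bulk. LIG4 (ENSG00000174405, chromosome 13, 108207439 to 108218368) had 253 reads in Bulk against 312 (Claret), 315 (eGFP) and 311 (Violet), at log2 ratios of 0.19, 0.30 and 0.30. XRCC4 (ENSG00000152422, chromosome 5, 83077498 to 83353787) had 162 reads in Bulk against 194 (Claret), 215 (eGFP) and 137 (Violet). Its log2 ratios were 0.15, 0.39 and -0.24, with Violet on the other side of 0. XRCC4 and LIG4 were near equal per kilobase in Bulk, Claret and eGFP, at 1.05 (0.856 to 1.28), 1.02 (0.848 to 1.22) and 1.12 (0.936 to 1.34), whereas in Violet the ratio was 0.722 (0.586 to 0.886). XRCC5 stood at 0.393 times XRCC6 in Bulk (0.382 to 0.405) and at 0.345, 0.355 and 0.339 in Claret, eGFP and Violet.

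MSH6 (ENSG00000116062, chromosome 2, 47695530 to 47810101), a mismatch-recognition subunit, was the only cell-cycle-bound member not called in any library. It had 2251 reads in Bulk against 1403 (Claret), 1291 (eGFP) and 1212 (Violet). All slow-cycling values were below Bulk, with log2 ratios of -0.79, -0.81 and -0.89 and a 95% interval of -0.89 to -0.69 in Claret.

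**Figure D3:**
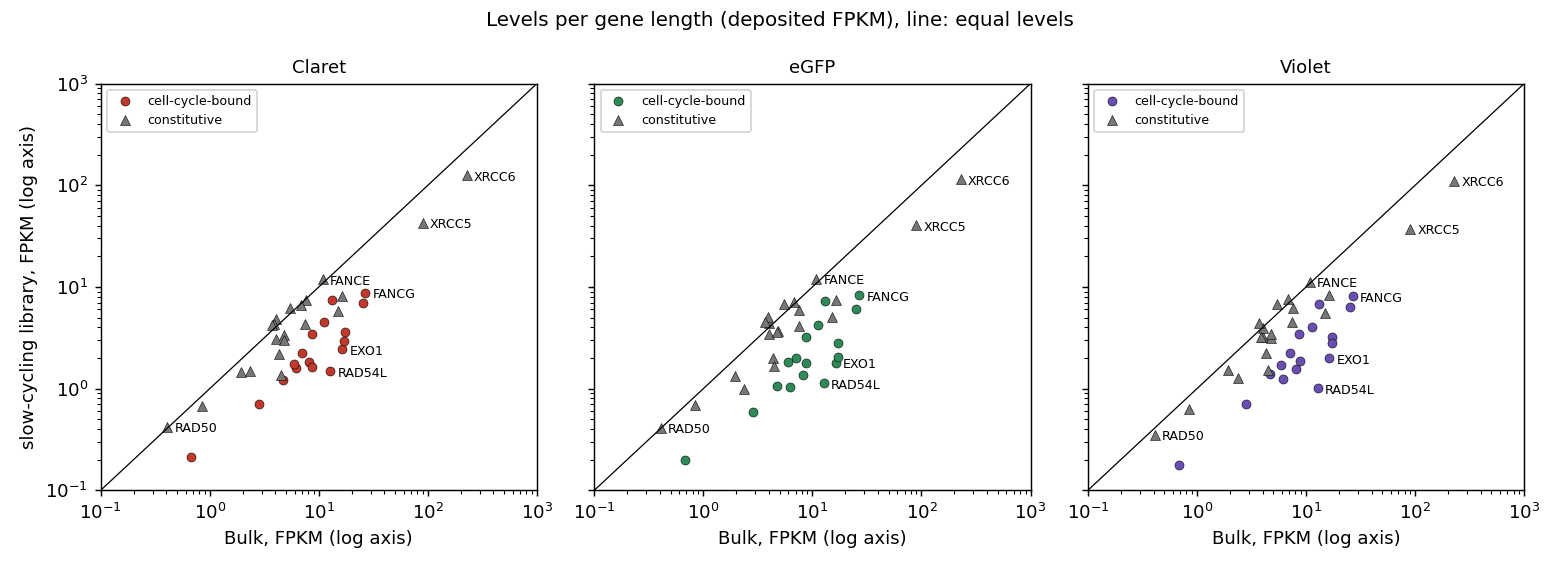
Each panel plots the deposited FPKM of the 38 members in a slow-cycling library against Bulk on log axes, with cell-cycle-bound members as coloured circles, constitutive members as grey triangles and a line at equal levels. XRCC6 and XRCC5 are highest in every panel, FANCE and RAD50 lie by the line, and EXO1 and RAD54L lie well under it.

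Compared per gene length, the order of the members differed between Bulk and the slow-cycling libraries. By the authors' FPKM, RAD51AP1 ranked 5th of 38 in Bulk and 17th, 22nd and 18th in Claret, eGFP and Violet. RAD54L ranked 11th in Bulk and 30th, 31st and 34th. FANCE ranked 13th in Bulk and 3rd in each slow-cycling library, with 10.8 FPKM in Bulk and 11.9, 12 and 11.2 in the slow-cycling libraries. ATM ranked 23rd in Bulk and 10th, 8th and 8th. XRCC6 and XRCC5 ranked 1st and 2nd in every library. The summed reads of the 38 members were 50536 in Bulk against 27230 (Claret), 24527 (eGFP) and 24451 (Violet).

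The slow-cycling libraries were also compared with each other. No member was called in any of the 3 pairs. For Claret against eGFP 0.446% of all genes tested were called lower and 0.315% higher, for Claret against Violet 0.583% and 0.219%, and for eGFP against Violet 0.727% and 0.288%. At an unadjusted p under 0.05 by the same exact binomial test, 12, 9 and 8 members differed, beside 3645, 4149 and 4213 of the 14585 genes tested. With a threshold of 0.58 in place of 1, BLM and RAD51AP1 were called for Claret against eGFP and RAD51AP1 and XRCC4 for eGFP against Violet. The shares of all genes above hold for a threshold of 1 and cannot be set beside these calls. Shares at 0.58 are not given here. RAD51AP1 was lower in eGFP than in Claret, with a log2 ratio of Claret to eGFP of 0.79 (0.42 to 1.21) and of eGFP to Violet of -0.66 (-1.09 to -0.27). BLM was higher in Claret than in eGFP by 0.61 (0.27 to 0.97). XRCC4 was higher in eGFP than in Violet by 0.63 (0.32 to 0.96). Of the 17 cell-cycle-bound members 15 had a log2 ratio of Claret to eGFP above 0, with a median of 0.14, beside 7372 of 14585 genes tested and a median of 0.00. Among the constitutive members 11 of 21 were above 0, with a median of 0.03. The tilt was not particular to the repair genes, as 26 of 27 replication genes were above 0, with a median of 0.27.

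**Figure D4:**
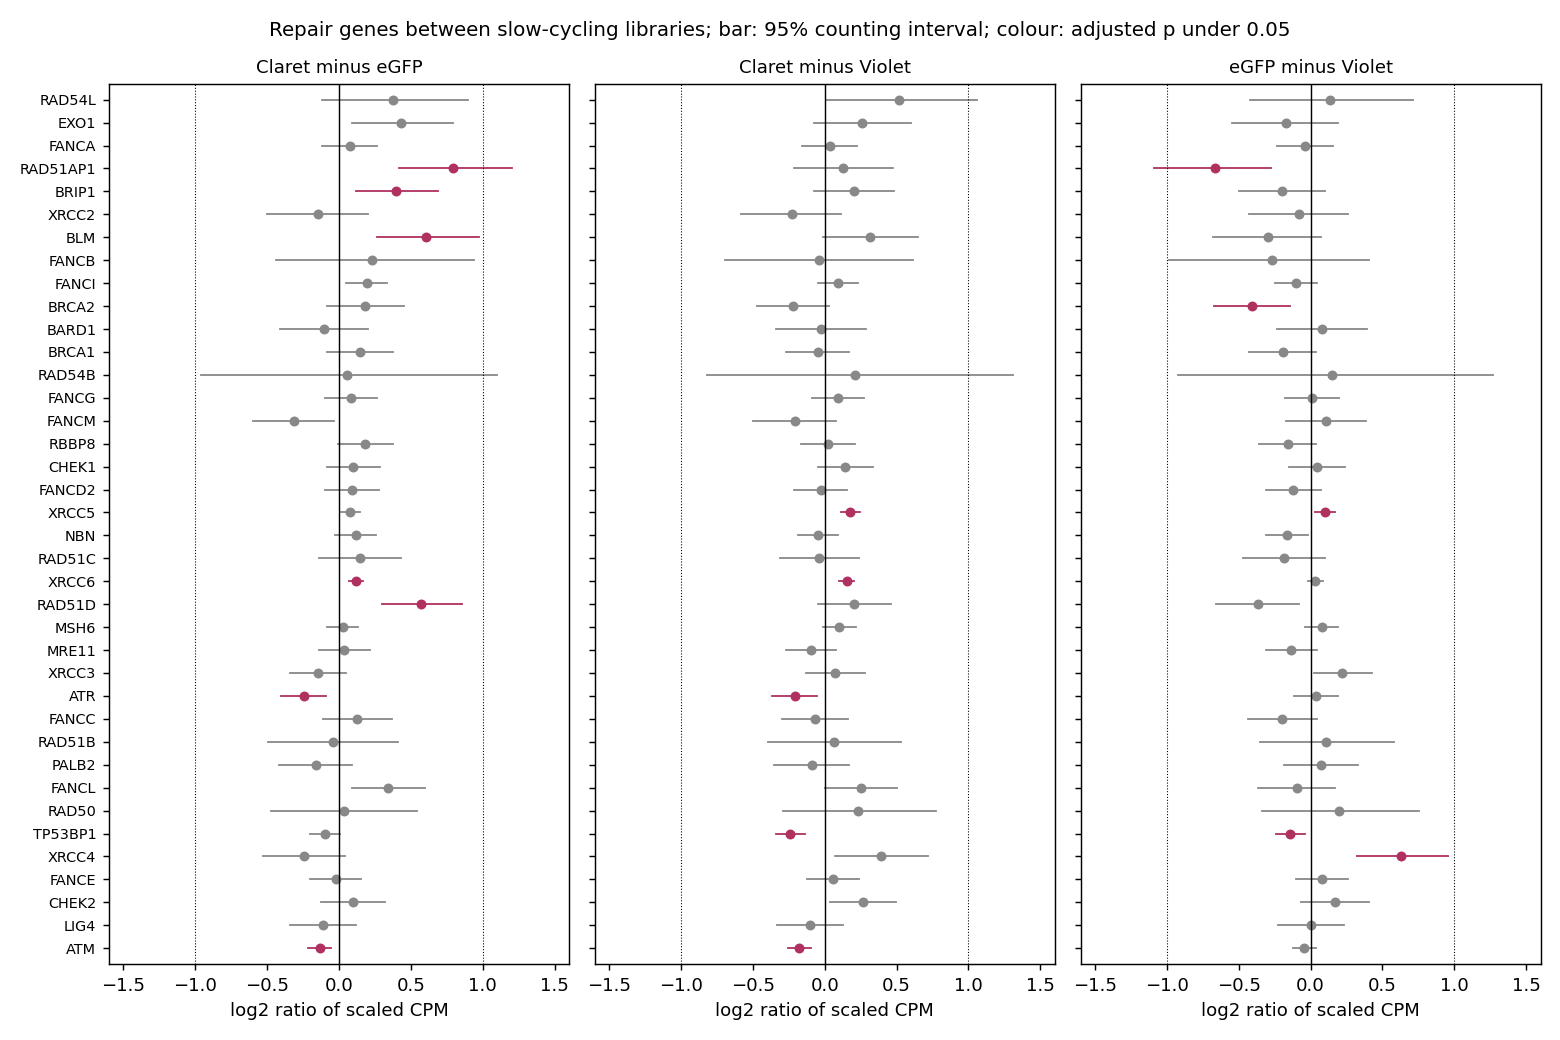
Points are log2 ratios of scaled CPM between 2 slow-cycling libraries for each of the 38 members, ordered by their mean ratio to Bulk, with 95% counting intervals. Coloured points have an adjusted p under 0.05, dotted lines mark -1 and 1, and no point passes them.

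Other genes of the same pathways were read from a list of 81 genes, of which 78 passed the filter. In Claret 28 of the 78 were called lower and 2 higher, in eGFP 32 and 2, and in Violet 30 and 3, with median log2 ratios of -0.58, -0.62 and -0.66. The shares called lower were 35.9%, 41.0% and 38.5%, beside 6.72%, 7.64% and 6.91% of all genes tested. Of all genes tested 11.2%, 11.9% and 11.6% were called higher. By the mean log2 ratio over the 3 libraries, the lowest were CLSPN, the adaptor that lets ATR activate CHEK1, RECQL4, a helicase, and TIMELESS, a fork-protection factor. CLSPN had 1726 reads in Bulk against 172 (Claret), 133 (eGFP) and 159 (Violet), with log2 ratios of -3.42, -3.69 and -3.42. RECQL4 had 3440 reads in Bulk against 773 (Claret), 554 (eGFP) and 574 (Violet) (-2.26, -2.64 and -2.58), and TIMELESS had 1952 reads in Bulk against 446 (Claret), 326 (eGFP) and 364 (Violet) (-2.23, -2.59 and -2.42). By the same mean the highest were ZSWIM7, POLL and ERCC1. ZSWIM7, which promotes recombination, had 203 reads in Bulk against 493 (Claret), 461 (eGFP) and 447 (Violet), with log2 ratios of 1.16, 1.16 and 1.13. POLL, a gap-filling polymerase of end joining, had 361 reads in Bulk against 794 (Claret), 763 (eGFP) and 789 (Violet) and ratios of 1.03, 1.06 and 1.12. ERCC1, part of a nuclease that cuts at crosslinks, had 645 reads in Bulk against 1232 (Claret), 1043 (eGFP) and 1034 (Violet) and ratios of 0.82, 0.68 and 0.68, not called. The third gene called higher in Violet, named after its values were seen, was SHLD1, with 15 reads in Bulk against 18 (Claret), 22 (eGFP) and 32 (Violet). With a GC correction 1 gene of this list was called higher in Claret and 1 in eGFP.

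Some members share sequence with other genes, which makes their counts less certain. Of the 31-base stretches of their transcripts, 28.0% were shared for XRCC6, 15.1% for FANCD2 and 12.4% for MRE11. The single genes that shared the most with them were the pseudogenes XRCC6P2, FANCD2P2 and MRE11P1. For CHEK2 20.99% were shared, for ATR 16.9% and for RAD51D 15.6%. The single gene that shared the most was AC109992.1 for ATR and HSCB for CHEK2, although HSCB overlaps only 6.70% of the exon bases of CHEK2. MSH6 shares 16.2% of its exon bases with FBXO11. The part of these overlaps in the ratios was not tested.

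Excision repair, which does not use a sister chromatid, was read in the same way. Of 18 nucleotide excision genes 0 were called lower and 1 higher in each library, with medians of -0.12, -0.11 and -0.17. Of all genes tested 6.72%, 7.64% and 6.91% were called lower and 11.2%, 11.9% and 11.6% higher. Whether so few genes differ from these shares was not tested. The gene called, named after its values were seen, was UVSSA, with 623 reads in Bulk against 1372 (Claret), 1371 (eGFP) and 1438 (Violet). Of these 18 genes, 12, 11 and 12 had an unadjusted p under 0.05 by the exact binomial test in either direction, a cut that 10300, 10459 and 10435 of all 14585 genes passed. Of 20 base excision genes 4, 5 and 5 were called lower (20%, 25% and 25%, beside the shares of all genes above), with medians of -0.36, -0.49 and -0.58. They were UNG, NEIL3, FEN1 and PARP1 in each library and PARP2 in eGFP and Violet, also named after their values were seen.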

How the data were processed

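RNA of 4 samples of MDA-MB-231 cells was compared, 1 library per group. Per the file headers, the authors deposited raw read counts for each gene, whole numbers in every library. HISAT2 2.0.5 and featureCounts 1.5.0-p3 are named in the submitters' processing notes, and the use of strand and of reads that match several genes is not given in the sources used here. The deposited FPKM values give, per gene length, the same ratios between genes as those counts. Start and end of all 58735 genes equal GENCODE 29 (GRCh38), and coordinates are 1-based.

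Libraries were scaled by TMM (edgeR 4.0.16, R 4.3.3). A prior count of 2 was added before CPM ratios were taken. With 1 library per group the quasi-likelihood test of edgeR cannot be fitted, and pairs of libraries were compared by a two-sided exact binomial test conditional on their summed reads (scipy 1.17.1), adjusted by Benjamini-Hochberg over 14585 genes. Intervals are 95% exact (Clopper-Pearson), and they cover counting error only, as does the floor of 3 reads (0.177 to 0.193 CPM). Overlaps are of GENCODE 29 exons. A few genes are not reported here. Genes named by rule are the 38 members and the 3 lowest and 3 highest of the wider list by mean log2 ratio. Markers and overlapping genes are also named, and other genes named after their values were seen are marked so. The members and lists were chosen with earlier results of these data known. Alternatives were other scalings, filters, prior count and thresholds, the FPKM scale, a GC correction and groups from the treatment field.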

Additional observations from a re-analysis of the deposited data

Results flagged for a closer look

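Members whose reads differed between 2 slow-cycling libraries at an adjusted p under 0.05, by the exact binomial test with Benjamini-Hochberg adjustment and whatever the size, are given here as log2 ratios. Such differences were found for 7, 5 and 5 of the 38 members in the 3 pairs, beside 12.6%, 17.4% and 17.2% of all genes tested, and each rests on 1 library per group.

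For Claret against eGFP they were RAD51AP1 (0.79), BLM (0.61), RAD51D (0.57), BRIP1 (0.40), XRCC6 (0.12), ATM (-0.13) and ATR (-0.25). A value above 0 is higher in the library named first.

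For Claret against Violet they were XRCC5 (0.18), XRCC6 (0.15), ATM (-0.18), ATR (-0.21) and TP53BP1 (-0.24).

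For eGFP against Violet they were XRCC4 (0.63), XRCC5 (0.10), TP53BP1 (-0.14), BRCA2 (-0.40) and RAD51AP1 (-0.66).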

How the results depend on the processing

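No paired analysis was possible because each group has 1 library, and for the same reason no replicate could be left out. Over all alternatives but the treatment field, 16 to 26 members were called lower in Claret, 20 to 25 in eGFP and 17 to 25 in Violet. These alternatives include a threshold of 0.58 and the 10 CPM filter, which leaves low members such as RAD54B and FANCB untested. Shares of all genes under the alternatives are not given here. The ranges therefore show only how the calls depend on the settings. The members' medians ranged from -1.03 to -0.89, from -1.19 to -1.01 and from -1.16 to -0.97. Single member ratios lost their call in 1 case under summed-read scaling, 2 under the 10 CPM filter and 5 on the scale log2(FPKM + 1), and no called ratio changed sign under these 3. On that last scale the cell-cycle-bound medians were -1.48, -1.59 and -1.61 in Claret, eGFP and Violet, because the pseudocount compresses low values.

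With a threshold of 0.58 the wider list had 6, 4 and 6 genes called higher, and 2 members were called for Claret against eGFP and 2 for eGFP against Violet. A window of 0.3 in place of 0.5 held 6 members in eGFP. Shares of all genes at the threshold of 0.58 and in the window of 0.3 are not given here, so these counts have no background beside them. Under the GC correction 1 gene of the wider list was called higher in Claret and 1 in eGFP. Over the 250 bases before the start alone, E2F letters occurred in 7 members, 4 of them cell-cycle-bound and 3 constitutive.

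Groups from the treatment field exchange the roles of the libraries. Claret then had 0 members called lower and 20 higher, and 3 genes of the wider list lower and 30 higher, with medians of 1.11 (members), 1.90 (cell-cycle-bound) and 0.36 (constitutive). eGFP had 0 members and 0 wider genes called lower, 0 wider genes called higher, 37 members within 0.5, and medians of 0.062, 0.094 and 0.024. Violet had 0, 0 and 0 likewise, 36 members within 0.5, and medians of -0.042, -0.10 and 0.034. Claret against eGFP had 19 members called and a median of 1.01, and Claret against Violet 22 and 1.17. Which field is right was not settled from the labels. Depth limits RAD54B, RAD50, RAD51B and FANCB most.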
